A study of Mus musculus with 8 samples.

Results

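Heparan sulfate and chondroitin sulfate are long sulfated sugar chains carried by proteoglycans at the cell surface and in the matrix, and the genes that build, edit and carry them were followed here in cortical GABAergic neurons of mice whose thyroid hormone receptor was normal or mutated. Members were chosen by gene symbol, as protein-coding genes for chain synthesis, sulfation, epimerisation and cleavage and for syndecan and glypican core proteins. This choice was made with earlier results of these data known. The rule found 58 genes among the 55450 of the count tables. Among them are 7 Chst genes that act on other sugars than heparan or chondroitin sulfate, so the set is somewhat wider than its name.

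Nuclei were sorted by a fluorescent nuclear protein from the frozen cortex of single juvenile mice, and their nuclear RNA was sequenced. Cre, driven in GABAergic neurons, switches on the reporter in all mice, and in the mutants also a mutant Thra allele, whose receptor for thyroid hormone acts as a dominant negative. Control mice are Thra+/+ (animals 1, 2, 3 and 4) and mutants Thra+/AMI (animals 6, 7 and 8). The table labelled mutant 10 held the same count as mutant 7 in all 58 members, and in all 55220 genes compared. These 2 tables therefore repeat each other and count as 1 sample, called mutant 7. Which animal, 7 or 10, gave these counts is not known. The Cre line, the exact age and the strain were not given in the sources used here. A whole cortex mixes several classes of GABAergic neurons, so fewer cells of a class and less RNA per cell cannot be told apart in any difference below.

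Both chains start from a xylose that is placed on a serine of the core protein and extended to a short linker. Exostosins then polymerise heparan sulfate, while chondroitin synthases polymerise chondroitin sulfate, and sulfotransferases and epimerases write patterns along each chain. These patterns set which growth factors, guidance cues and matrix proteins bind. In the cortex, chondroitin sulfate proteoglycans are a main part of the perineuronal nets around parvalbumin neurons.

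The labels were checked on marker genes. Thra was at 108, 126, 119 and 105 CPM (counts scaled to the size of each library) in controls 1 to 4 and at 77.6, 96.3 and 88.6 CPM in mutants 6, 7 and 8. Its log2 fold change was -0.39 (mutant over control, SE 0.11), without a call (edgeR adjusted p 0.0543). Counts per gene do not separate the alleles and so cannot check the mutation itself. The GABA-synthesising enzyme Gad1 averaged 569 ± 63.2 CPM over controls (SD, n = 4) and 637 ± 43.9 over mutants (SD, n = 3), and the glutamatergic marker Slc17a7 at 72.2 ± 21.4 and 67.2 ± 18.4 CPM.

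Total counts ran from 10747169 to 13804734 per library, of which the members took 0.256% to 0.340%. The libraries differed in a way that touches the members, 23 of whose 50 tested genes span over 100 kb. Of these 23 long members, 22 were higher in control 4 than in the mean of controls 2 and 3, with a median log2 ratio of 0.62, and 20 were lower in control 1, with a median of -0.27. The 27 shorter members had medians of 0.09 and 0.08. Summed over the long members, controls 1 to 4 held 1329, 1940, 1623 and 2703 CPM, and mutants 6, 7 and 8 held 1661, 1526 and 1585. Apart from this, control 4 and mutant 8 had 4 and 3 reads of Y-linked genes, where the other libraries had 5094 to 6644. These reads point to females in control 4 and mutant 8 and males in the others, and the model held no term for sex. The X-linked members are Hs6st2, Chst7, Gpc3 and Gpc4. Values without control 1 or 4 are therefore given beside the called genes.

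**Figure D1:**
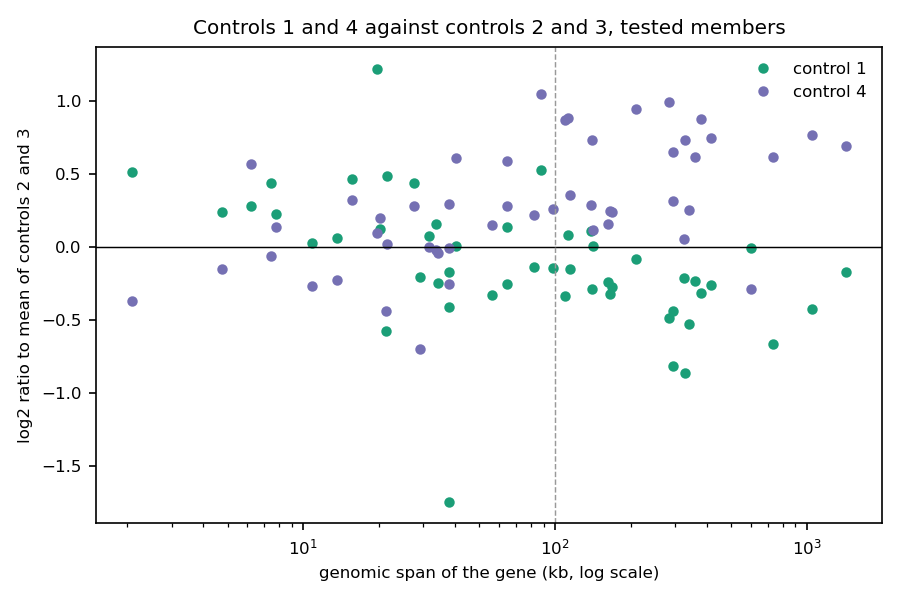
Log2 ratio of control 1 (green) and control 4 (violet) to the mean of controls 2 and 3, for each of the 50 tested members, against the genomic span of the gene in kb on a log scale, with a pseudocount of 0.5 CPM. To the right of the dashed line at 100 kb, 22 of 23 points of control 4 lie above 0 and 20 of 23 points of control 1 lie below it.

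Of the 58 members 50 had enough reads to be tested, and 7 of these were called at an adjusted p under 0.05, 5 lower and 2 higher in mutants. This is 14.0% of the tested members, against 9.42% of all 16448 tested genes and 10.3% of the tested protein-coding ones, a share near the background. By direction, 5 lower of 50 stand against 4.78% of all tested genes and 2 higher against 4.63%. With a log2 fold change beyond 1 in either direction as a further condition 5 members were called, where 3.90% of all tested genes were. At an unadjusted p under 0.05 stood 16 of 50 members and 22.5% of all tested genes. DESeq2 called 10 members, where it called 12.1% of all tested genes, and limma-voom called 10, where it called 19.1%, and the counts by role below are to be read against these shares. The median log2 fold change of the tested members was -0.05, against -0.01 for all tested genes. The groups did not overlap for 11 of 50 members, 7 of them lower and 4 higher, where 22.0% of all tested genes did not (10.7% lower and 11.2% higher). Of the 5 lower genes, Extl2 acts on the linker that both chains share and the others on heparan sulfate. Among these others, Hs3st3a1 entered the test through its controls alone. The 2 higher genes act on chondroitin and dermatan sulfate. This split was seen in the values and was not tested. It was not complete in the other tools: both DESeq2 and limma-voom also called Chst7 of chondroitin sulfate lower and the heparan core protein Sdc2 higher.

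**Figure D2:**
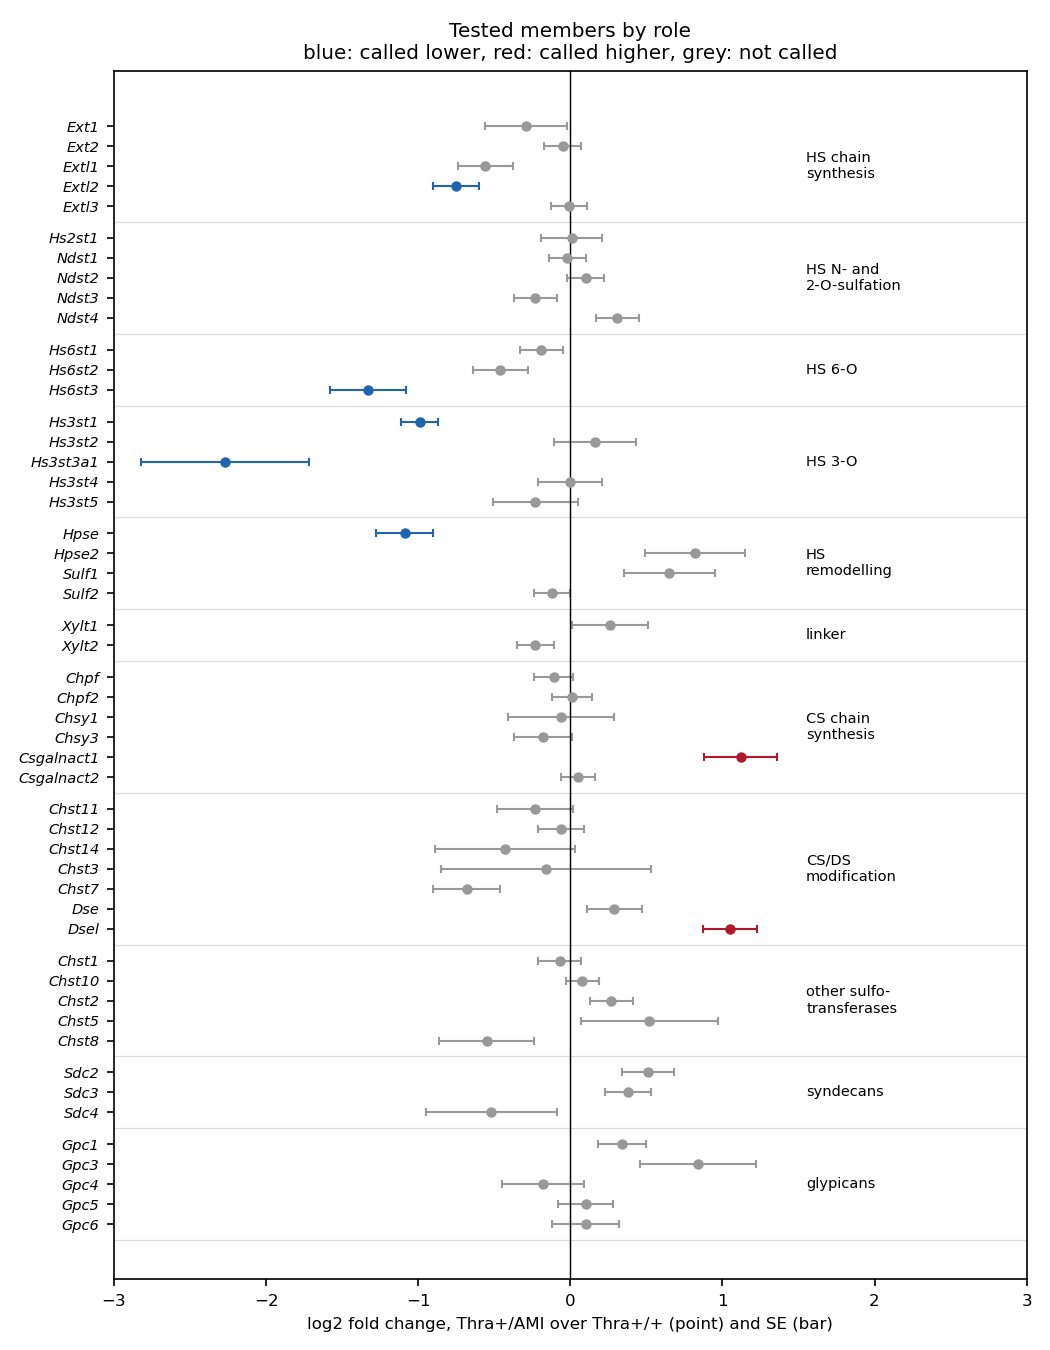
Log2 fold change (mutant over control, points) with its SE (bars) for the 50 tested members, in groups by role, with HS for heparan, CS for chondroitin and DS for dermatan sulfate. Blue points are the 5 members called lower, red points the 2 called higher, and grey points the 43 not called, which lie between -0.68 and 0.84.

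The largest change in read number was in Hs6st3 (ENSMUSG00000053465.6, GRCm38 chr14:119138341-119869815, plus strand), which adds sulfate to the 6-O position of glucosamine in heparan sulfate. Hs6st3 was at 264, 476, 361 and 643 CPM in controls 1 to 4 and at 189, 165 and 167 CPM in mutants 6, 7 and 8. Every mutant lay below every control, and the controls were spread much more widely than the mutants. The gene fell by 1.33 on the log2 scale (SE 0.25, adjusted p 0.00529, edgeR), a 2.51-fold fall. The fall was 1.08 without control 4, 1.50 without control 1 and 1.27 without both, with a call each time. Without control 4 and mutant 8 it was 1.05, also called. After a correction of each library for genomic length it was 1.30 (edgeR adjusted p 5.78e-08).

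The paralogs of Hs6st3 were not called. Hs6st2 was at 22.1 to 37.7 CPM in controls and 21.5 to 22.2 CPM in mutants (log2 fold change -0.46, edgeR adjusted p 0.160), and it was called without control 1, without controls 1 and 4, and with the length correction. Hs6st1 was at 28.7 to 39.9 and 27.6 to 32.5 CPM (-0.19). Hs6st3 gave 83.8%, 87.6%, 86.2% and 89.2% of the reads of the 3 genes in controls 1 to 4, against 79.1%, 77.1% and 75.4% in mutants 6, 7 and 8.

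The 3-O-sulfotransferases add the rarest sulfate of heparan sulfate, and 5 of 7 were tested. Hs3st1 (ENSMUSG00000051022.7, chr5:39613935-39755475, minus strand), whose product makes the antithrombin-binding pattern, was at 69.6, 73.7, 64.9 and 75.3 CPM in controls 1 to 4. In mutants 6, 7 and 8 it was at 38.6, 31.1 and 37.2 CPM. The groups lay far apart and each was tight, in contrast to Hs6st3. The gene fell by 0.99 on the log2 scale (SE 0.12, adjusted p 0.00027, edgeR), which is 1.99-fold, and by 0.90 to 1.05 in all 16 other fits (other scalings, filters, tools and sets of libraries), with a call in each.

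Hs3st3a1 (ENSMUSG00000047759.6, chr11:64435332-64522841, plus strand), of the same family, was scarce, with 20, 13, 12 and 31 reads in controls 1 to 4, against 3, 2 and 6 reads in mutants 6, 7 and 8. In CPM these were 1.59, 0.982, 0.913 and 2.50 against 0.235, 0.184 and 0.469. Every mutant lay under the filter's least count of 10, so the gene entered the test through its controls alone. Its call and the lack of overlap between the groups are to be read with that limit. The gene fell by 2.27 on the log2 scale (SE 0.55, adjusted p 0.0226, edgeR). The call was lost without any 1 of the mutants 6, 7 and 8 (adjusted p 0.111, 0.114 and 0.0501) and without controls 1 and 4 (log2 fold change -1.63, adjusted p 0.101). Another gene on the opposite strand shares 32.9% of its exon bases, and its sulfotransferase domain is nearly identical to that of Hs3st3b1, so its counts are uncertain. Hs3st3b1 itself had 0 to 12 reads per library and was not tested.

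The other tested members of the family were not called. Hs3st4 was at 35.1 to 70.8 CPM in controls and 40.2 to 54.9 in mutants (log2 fold change 0.00), Hs3st5 at 38.8 to 119 and 55.8 to 70.4 (-0.23), and Hs3st2 at 8.41 to 20.1 and 11.4 to 15.7 (0.16). Hs3st6 had 1 read in all. Hs3st1 therefore gave 45.2%, 34.7%, 36.7% and 26.2% of the reads of the 7 genes in controls 1 to 4, against 23.4%, 20.3% and 22.5% in mutants 6, 7 and 8. Control 4 came nearest to the mutants, and its Hs3st4 and Hs3st5 were the highest of the controls.

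Extl2 (ENSMUSG00000027963.14, chr3:116007462-116029017, plus strand) encodes a transferase that adds a sugar to the linker and can end its extension. It was at 63.4, 45.6, 44.3 and 45.7 CPM in controls 1 to 4 and at 26.1, 33.7 and 28.8 CPM in mutants 6, 7 and 8. All mutants were lower, and control 1 was high among the controls. The gene fell by 0.75 on the log2 scale (SE 0.15, adjusted p 0.00916, edgeR) and by 0.61 without control 1. It lost its call without mutant 6 (-0.67, adjusted p 0.0640) or mutant 8 (-0.73, adjusted p 0.0549).

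The polymerases themselves were not called. Ext1 and Ext2, which together form the heparan sulfate polymerase, were at 83.3 to 233 and 102 to 135 CPM in controls and 101 to 122 and 109 to 122 CPM in mutants (log2 fold changes -0.29 and -0.05). Extl3, which starts the heparan chain, stood at -0.01. Extl1 went from 19.0 ± 3.01 to 12.8 ± 2.02 CPM without overlap, at a log2 fold change of -0.56 (edgeR adjusted p 0.0705). It was called in DESeq2 and with the length correction.

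Hpse (ENSMUSG00000035273.14, chr5:100679484-100719716, minus strand) encodes heparanase, which cuts heparan sulfate chains. It was at 21.7, 21.5, 21.7 and 33.1 CPM in controls 1 to 4 and at 10.6, 12.9 and 11.0 CPM in mutants 6, 7 and 8. The 3 mutants lay at a low and even level, and control 4 stood above the other controls. The gene fell by 1.09 on the log2 scale (SE 0.19, adjusted p 0.00344, edgeR), and by 0.91 without control 4. Hpse2, whose product binds the chains without cutting them, was at 1.14 to 2.04 CPM in controls and 1.88 to 3.21 in mutants (log2 fold change 0.82, edgeR adjusted p 0.165).

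The sulfatases that remove 6-O-sulfate outside the cell were not called. Sulf2 was at 203 to 259.9 CPM in controls and 192 to 221 CPM in mutants (log2 fold change -0.12, SE 0.12). Sulf1 was at 2.62 to 3.95 and 3.21 to 7.35 CPM (0.65, SE 0.30, edgeR adjusted p 0.215).

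Enzymes of N-sulfation and 2-O-sulfation had 0 calls among 5 in edgeR, with 1 unadjusted p under 0.05, and 0 in DESeq2 and limma-voom. Ndst1, Ndst2, Ndst3 and Ndst4 exchange an acetyl group for sulfate on glucosamine. Ndst3 stood at 152 to 179 CPM in mutants and 158 to 235 in controls (log2 fold change -0.23), and Ndst4 at 19.4 to 20.8 and 14.3 to 17.3 without overlap (0.31, edgeR adjusted p 0.201). Ndst1 (-0.02), Ndst2 (0.10) and the 2-O-sulfotransferase Hs2st1 (0.01) had the smallest log2 fold changes of the 5. The xylosyltransferases had 0 calls among 2 in edgeR, 0 unadjusted p under 0.05, and 0 in DESeq2 and limma-voom. Xylt1 stood at 0.26 and Xylt2 at -0.23. Xylt1 was called without control 4 (0.53, edgeR adjusted p 0.0499) and without controls 1 and 4.

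On the chondroitin side, Csgalnact1 (ENSMUSG00000036356.15, chr8:68356781-68735146, minus strand) adds the first N-acetylgalactosamine to the linker and so commits it to chondroitin sulfate. It was at 18.9, 26.2, 21.0 and 44.0 CPM in controls 1 to 4 and at 63.0, 50.1 and 66.4 CPM in mutants 6, 7 and 8. All mutants were higher, and control 4 came nearest to them. The gene rose by 1.12 on the log2 scale (SE 0.24, adjusted p 0.0115, edgeR), a 2.18-fold rise. The rise was 0.98 without control 1, 1.44 without control 4 and 1.34 without controls 1 and 4, with a call each time. Without mutant 6 (1.08) and without mutant 8 (1.05) the call was lost, at adjusted p 0.0623 and 0.0632, as it was with no filter on low counts (1.13, adjusted p 0.0895).

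Csgalnact2, which makes the same linkage, was at 29.4 to 33.0 CPM in controls and 32.2 to 34.1 in mutants (log2 fold change 0.05, SE 0.11). Csgalnact1 gave 36.4%, 44.3%, 41.7% and 58.5% of the reads of the pair in controls 1 to 4, against 66.1%, 60.9% and 66.1% in mutants 6, 7 and 8. Chsy1, Chsy3, Chpf and Chpf2, the subunits of the chondroitin polymerase, were not called and had log2 fold changes between -0.18 and 0.01. Of the span of Chsy1, 98.9% is shared with other genes, and of Chpf2 47.8%, so their reads are uncertain.

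Dsel (ENSMUSG00000038702.6, chr1:111858702-111864918, minus strand) encodes an epimerase that turns glucuronate into iduronate, which makes dermatan sulfate of chondroitin sulfate. It was at 13.4, 11.4, 10.4 and 16.5 CPM in controls 1 to 4 and at 25.3, 23.7 and 31.5 CPM in mutants 6, 7 and 8. The gene spans 6.22 kb, and control 4 was the highest control here too. It rose by 1.05 on the log2 scale (SE 0.18, adjusted p 0.00294, edgeR), a 2.08-fold rise, and was called in all 16 other fits with rises from 0.93 to 1.30.

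Its paralog Dse was at 11.4 to 16.1 CPM in controls and 14.2 to 19.6 in mutants (log2 fold change 0.29, edgeR adjusted p 0.380). Dsel gave 54.0%, 41.7%, 44.6% and 50.5% of the reads of the pair in controls 1 to 4, against 56.4%, 62.5% and 63.8% in mutants 6, 7 and 8. Chst14, which sulfates the iduronate-bearing chain, was low in every library, at 0.756 to 2.06 CPM in controls and 0.782 to 1.47 in mutants (-0.43).

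The chondroitin sulfotransferases had 0 calls among 5 tested genes other than Dse and Dsel. Chst7, a 6-O-sulfotransferase, was at 7.06 to 10.9 CPM in controls and 4.77 to 6.43 in mutants without overlap (log2 fold change -0.68, edgeR adjusted p 0.0743). Chst7 was the single one of these 5 with an unadjusted p under 0.05, and both DESeq2 and limma-voom called it. Chst11, a 4-O-sulfotransferase, was at 19.4 to 20.8 CPM in controls 1 to 3, 40.0 in control 4 and 17.4 to 25.6 in mutants (-0.23). Chst12 stood at -0.06 and Chst3 at -0.16, the latter on at most 2.28 CPM.

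**Figure D3:**
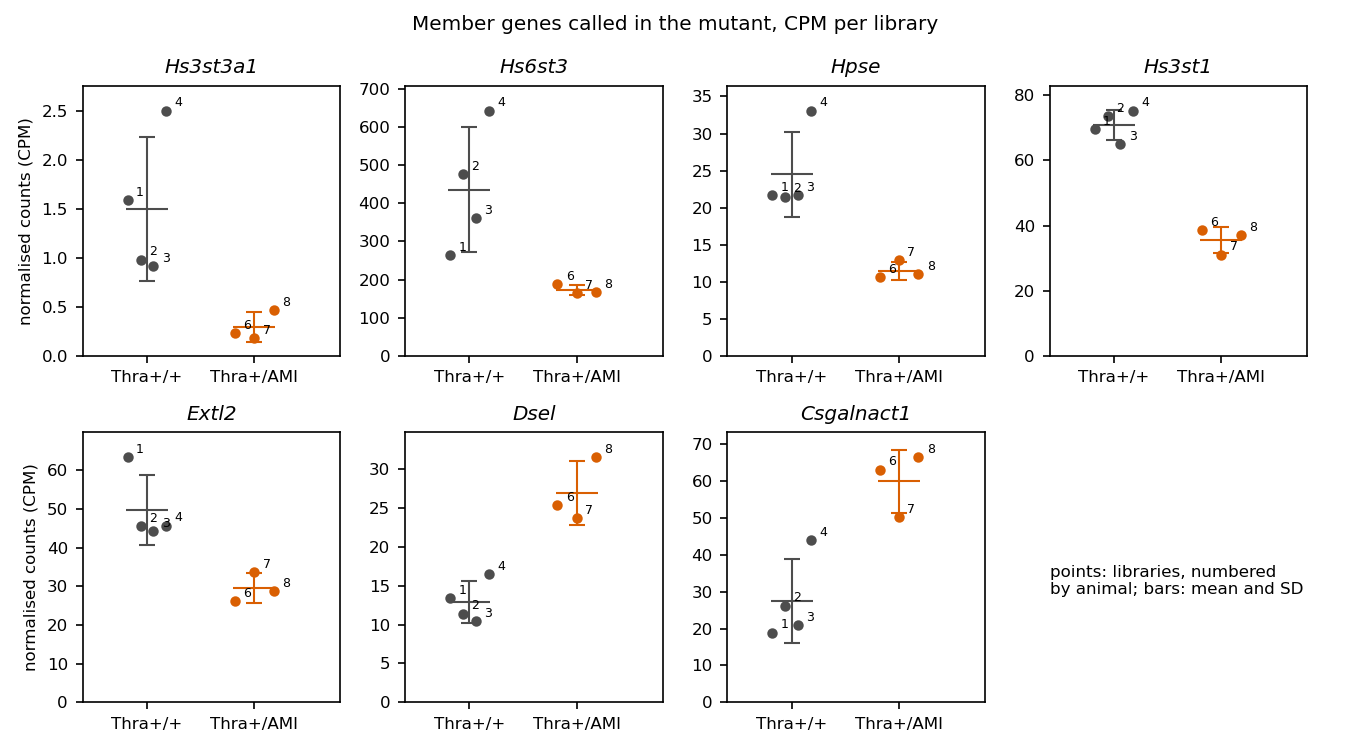
Normalised counts (CPM, linear axes from 0) of the 7 called members in each library, with the animal's number beside each point and the mean and SD as bars. In each panel the 3 mutants (orange) and the 4 controls (grey) do not overlap, and control 4 is the highest control in all but Extl2.

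Within 4 of the enzyme families the called gene's share of reads did not overlap between the groups. This measure does not depend on how libraries were scaled, and the families were picked with the values already known. It does not remove differences along genomic length, since Hs6st3 (731 kb) and Csgalnact1 (378 kb) are much longer than Hs6st1 (38.0 kb) and Csgalnact2 (31.7 kb). Among controls, the shares of Hs6st3 and Csgalnact1 were lowest in control 1 (83.8% and 36.4%) and highest in control 4 (89.2% and 58.5%). The mean share went from 86.7 ± 2.28% (SD, n = 4) to 77.2 ± 1.87% (SD, n = 3) for Hs6st3 and from 35.7 ± 7.82% to 22.1 ± 1.58% for Hs3st1. It went from 45.2 ± 9.43% to 64.4 ± 3.02% for Csgalnact1 and from 47.7 ± 5.56% to 60.9 ± 3.95% for Dsel. These shares describe genes already called. In an exact permutation test of the group labels, adjusted over 5 families, each of these 4 shares had p 0.0571 (adjusted p 0.0714). With 4 controls and 3 mutants, 0.0571 is the smallest p this test can give. No share could therefore reach the limit used for a call, and the test cannot decide whether the shares differ. For the share of Extl2, p was 0.114 in the same test. The share of Extl2 among the 5 exostosin genes overlapped between the groups, at 8.77% to 18.8% in controls and 7.56% to 10.3% in mutants.

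**Figure D4:**
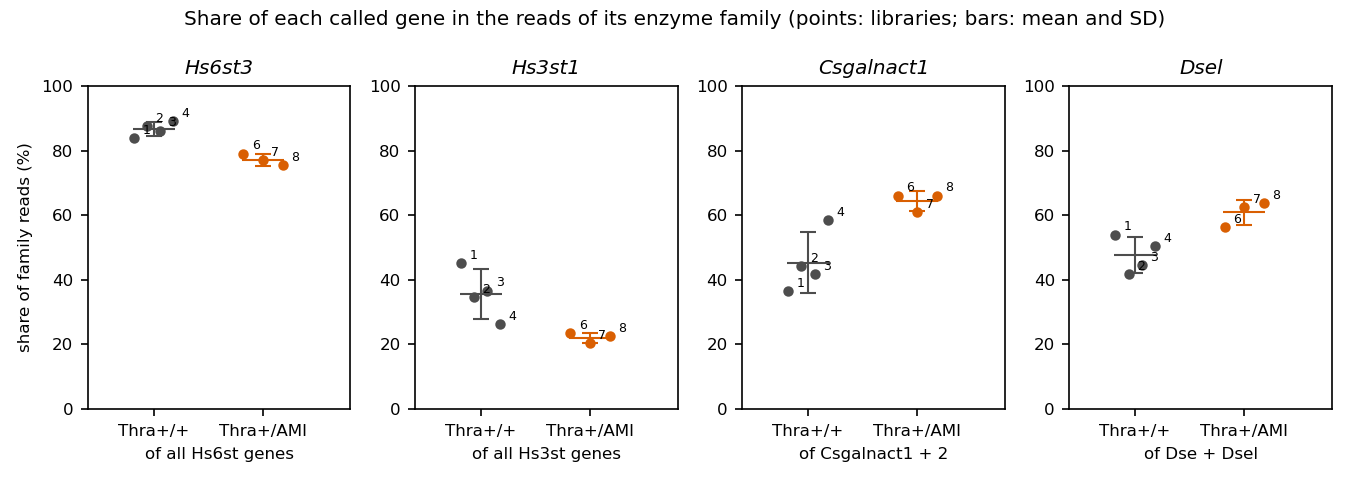
Share of reads (%, axes from 0 to 100) that the called gene takes among the genes of its enzyme family, in each library, with mean and SD as bars and the animal's number beside each point. The mutants (orange) lie below the controls (grey) for Hs6st3 and Hs3st1 and above them for Csgalnact1 and Dsel.

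The carbohydrate sulfotransferases that act on keratan sulfate, N-glycans or the HNK-1 epitope had 0 calls among 5 in edgeR, 0 unadjusted p under 0.05 and 0 calls in DESeq2, and limma-voom called 1, Chst2. Chst2 was at 30.2 to 43.5 CPM in controls and 39.1 to 43.5 in mutants (log2 fold change 0.27, edgeR adjusted p 0.292). Chst10, of HNK-1 synthesis, stood at 0.08 and Chst1 at -0.07. The largest differences of the 5 were in scarce genes, -0.55 for Chst8 and 0.52 for Chst5.

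Core proteins that carry the heparan chains had 0 calls in edgeR. Syndecans cross the membrane, and of the 3 tested 2 had an unadjusted p under 0.05 (22.5% of all genes), with 1 called in both DESeq2 and limma-voom. That gene, Sdc2, was at 15.2, 19.6, 14.4 and 21.9 CPM in controls 1 to 4 and at 23.9, 25.0 and 27.3 CPM in mutants 6, 7 and 8, without overlap (log2 fold change 0.51, edgeR adjusted p 0.0763). Sdc3, the neuronal syndecan, was at 23.1 to 32.6 and 32.1 to 44.1 CPM (0.38). Sdc4 stood at 1.13 to 4.12 CPM in controls and 1.41 to 1.65 in mutants.

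Glypicans sit on a lipid anchor, and of the 5 tested 1 had an unadjusted p under 0.05 (22.5% of all genes) and 0 were called in DESeq2 or limma-voom. Gpc6 was at 139 to 318 CPM in controls and 217 to 230.2 in mutants (log2 fold change 0.10), Gpc1 at 75.2 to 132 and 126 to 145 (0.34), and Gpc5 at 43.6 to 79.8 and 53.2 to 62.7 (0.10). Gpc3 was scarce, at 0.990 to 2.64 and 2.27 to 4.13 CPM (0.84, edgeR adjusted p 0.221). Gpc4 reached 10.7 CPM in control 4, while the other libraries held 5.14 to 7.28 CPM.

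Levels of different genes were compared per kb of exon in controls. Hs6st3 had the highest level, at 255 RPKM, followed by Sulf2 (38.7), Gpc6 (32.3), Hs3st1 (31.8) and Chsy3 (25.4). Nuclear RNA holds introns and the sources used here do not say whether intronic reads were counted, so the order depends on the length used. Per kb of genomic span Hs6st3 ranked 24 of 50, and Chpf (11.3 CPM per kb), Chpf2 (7.34) and Chst2 (4.64) led.

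The 8 members that were not tested were Hs3st3b1, Hs3st6, Chst4, Chst9, Chst13, Chst15, Sdc1 and Gpc2, with at most 16 reads in any library. Chst13 had 0 reads in every library, which allows up to 0.227 to 0.275 CPM each (3 counts of the total, for counting error only). Chst15, which makes a doubly sulfated chondroitin unit, and Gpc2 were also listed at 0. Both lie almost wholly inside another gene, with 100% and 99.3% of their spans shared. Of 1057 protein-coding genes with at least 98% of the span but under 20% of the exon bases shared, 97.2% were at 0 in every library, against 24.7% of 11728 genes without overlap. A 0 for Chst15, of whose exon bases 17.9% are shared, therefore says nothing of its expression, and none is stated for Gpc2.

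The promoter windows of called members were searched for the half-site that thyroid hormone receptors bind, since the mutated gene encodes such a receptor. RefSeq windows of 300 bases (250 before to 50 after a start, GRCm38.p6) were matched for 45 of the 58 members, and for 6 of the 7 called ones. The half-site AGGTCA, on either strand, was in 5340 of 32851 windows of this length (16.3%) and in 5 of 52 windows of members (9.62%), those of Chst10, Extl2, Gpc4, Hs6st2 and Sdc4. The DR4 element, a direct repeat of the half-site, was in 5 windows of all (0.0152%) and in 0 of members. Among called members 1 of 7 windows held the half-site, the downstream start of Extl2, where its first base lies 133 bases before the start. A match is a description of letters, and its absence here says nothing of other regions.

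The sequences shown are the 2 alternative starts of Extl2, which differ in the half-site (capitals mark AGGTCA), and the starts of Hs6st3 and Hs3st1, the heparan sulfotransferases with the largest fall in reads and the tightest fall. The windows lie at chr3:116007199-116007498 and chr3:116008047-116008346 (Extl2, plus strand), chr14:119138015-119138314 (Hs6st3, plus strand) and chr5:39644582-39644881 (Hs3st1, minus strand), and run 5′ to 3′ along the gene. The Hs3st1 start shown, at 39644631, lies inside the annotated gene, whose 5′ end is at 39755475.
Extl2 upstream start: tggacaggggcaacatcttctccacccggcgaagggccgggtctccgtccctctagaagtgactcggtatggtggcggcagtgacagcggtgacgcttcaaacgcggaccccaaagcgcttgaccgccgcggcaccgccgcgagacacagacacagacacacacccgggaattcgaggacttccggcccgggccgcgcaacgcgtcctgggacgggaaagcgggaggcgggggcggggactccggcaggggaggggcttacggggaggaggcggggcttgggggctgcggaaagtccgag
Extl2 downstream start: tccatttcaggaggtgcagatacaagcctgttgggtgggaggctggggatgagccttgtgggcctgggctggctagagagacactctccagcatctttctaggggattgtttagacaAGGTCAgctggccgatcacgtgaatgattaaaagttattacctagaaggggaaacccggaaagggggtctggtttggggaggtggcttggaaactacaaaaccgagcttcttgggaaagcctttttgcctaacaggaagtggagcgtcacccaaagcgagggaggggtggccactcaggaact
Hs6st3: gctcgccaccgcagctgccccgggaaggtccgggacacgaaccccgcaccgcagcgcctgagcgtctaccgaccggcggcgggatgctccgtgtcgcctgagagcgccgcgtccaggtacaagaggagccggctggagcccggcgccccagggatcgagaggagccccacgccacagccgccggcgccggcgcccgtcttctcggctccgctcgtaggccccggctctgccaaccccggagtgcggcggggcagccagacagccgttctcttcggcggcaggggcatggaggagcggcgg
Hs3st1: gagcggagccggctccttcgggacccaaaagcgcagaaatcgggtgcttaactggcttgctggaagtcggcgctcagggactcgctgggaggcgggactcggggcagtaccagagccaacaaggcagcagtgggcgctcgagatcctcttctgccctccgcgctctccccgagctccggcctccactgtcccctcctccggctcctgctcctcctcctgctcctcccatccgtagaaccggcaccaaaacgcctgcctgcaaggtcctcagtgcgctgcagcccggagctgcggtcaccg
The upstream Extl2 window has 69.3% G and C with 34 CG pairs, and the downstream one 53.3% with 6. The Hs6st3 window has 75.3% with 41 CG pairs and that of Hs3st1 67.0% with 24, against medians of 52.7% and 7 over all windows.

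A further 68 genes of the same pathway were listed by role, and 59 were tested. In edgeR 2 were called lower and 3 higher, which is 8.47% and thus near the 9.42% of all genes. The enzymes that complete the linker had 0 calls among 7 (1 unadjusted p under 0.05, 0 called in DESeq2 and 1 in limma-voom). Genes of sugar precursors and the sulfate donor had 0 among 10 (2 unadjusted, and 2 called in DESeq2 and limma-voom, Ugdh and Slc35d1). The epimerase Glce of heparan sulfate (log2 fold change 0.40, edgeR adjusted p 0.0570) and the uronyl 2-O-sulfotransferase Ust of chondroitin (-0.74, adjusted p 0.0707) were not called in edgeR and were called in DESeq2 and limma-voom.

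Calls among the 18 other core proteins went both ways. Ptprz1, a receptor phosphatase that carries chondroitin sulfate, was at 139, 147, 141 and 147 CPM in controls 1 to 4 and at 453, 486 and 364 CPM in mutants 6, 7 and 8, a rise of 1.60 on the log2 scale (SE 0.13, adjusted p 1.82e-05, edgeR). Bcan, the brevican core protein of perineuronal nets, went from 269 ± 25.7 to 82.6 ± 15.2 CPM (log2 fold change -1.70). The hyaluronan receptor Cd44 rose by 0.84 on the log2 scale (adjusted p 0.0215, edgeR), from 5.10 ± 0.865 to 9.15 ± 0.888 CPM. Cd44 lost its call when control 2, control 3 or a single mutant was left out (log2 fold changes 0.80 to 0.92), and without both control 4 and mutant 8 (0.70).

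Among receptors of the chains, the phosphatase Ptprf rose by 0.79 on the log2 scale, from 86.6 ± 9.16 to 150.3 ± 4.36 CPM (adjusted p 0.000789, edgeR). Of 12 tested lysosomal genes 1 was called, the glucuronidase Gusb (-0.43, adjusted p 0.0446), from 41.9 ± 3.99 to 31.1 ± 1.76 CPM. Gusb lost its call with upper-quartile factors, with either change of the filter, and when control 1, 2 or 3 or a single mutant was left out, at -0.48 to -0.40.

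Markers of cells and neuron classes that could move with these genes were measured in the same libraries. Summed over 8 astrocyte markers, controls held 249.7 to 318 CPM and mutants 198 to 223, most of it Slc4a4 (215 ± 35.6 and 148 ± 12.9 CPM). Aqp4 was at 6.22 ± 1.67 and 4.70 ± 1.30 CPM. Gfap was listed at 0, but 100% of its span is shared with another gene, so that 0 says nothing of its expression. Of 7 tested astrocyte markers 1 was called lower (Slc4a4) and 1 higher (Sox9). Oligodendrocyte precursor markers summed to 70.8 to 161 and 129.9 to 141 CPM. Most of that sum was Lhfpl3 (91.9 ± 39.9 and 124 ± 5.37 CPM), which spans 529.5 kb and stood at 57.5 CPM in control 1 and 149 in control 4. Endothelial markers summed to 57.3 to 132 and 56.4 to 87.7 CPM, and glutamatergic markers to 89.7 to 188 and 94.3 to 152. Somatostatin neuron markers summed to 1467 to 1589 CPM in controls and 1867 to 2261 in mutants, without overlap. Of the 8, Sst, Calb1 and Crhbp were called higher and Npy was called lower (log2 fold change -0.64, edgeR adjusted p 0.00932). The 4 not called were Elfn1 (0.43), Grin3a (0.44), Satb1 (0.01) and Chodl (0.11), of which limma-voom called Elfn1 and Grin3a. Parvalbumin neuron markers summed to 4610 to 7301 and 5762 to 7016 CPM, with overlap. Most of that sum was Erbb4 (3309 ± 710.1 and 3964 ± 494 CPM) and Kcnc2 (1465 ± 364 and 1824 ± 111 CPM), neither called in edgeR. The sum therefore mostly follows these genes. Of the 11 parvalbumin markers, 5 were called lower and 1 higher. Pvalb itself went from 41.0 ± 5.91 to 1.81 ± 0.682 CPM (log2 fold change -4.48, edgeR adjusted p 7.63e-07). Of 7 Vip neuron markers 2 were called lower (Chat and Crh) and 2 higher (Tac2 and Npas1). Of 8 Lamp5 neuron markers 1 was called lower (Cplx3) and 1 higher (Sv2c). Among 8 oligodendrocyte markers 1 was called higher (Mog), and 0 of 7 tested microglia markers were called. Over all tested genes 9.42% were called. The part of these marker shifts in the called members was not tested.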

How the data were processed

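Nuclear RNA was measured by SMART-Seq v4 and Nextera XT, per the labels' protocols. The authors deposited whole-number counts of reads per gene for each library, without normalization that the labels record. Bowtie2 2.5.3 and the builds mm10 and GRCm38 are named in the submitters' processing notes, and the counting program was not given in the sources used here. All 55450 gene identifiers were found in GENCODE M21 (GRCm38). PCR copies are not separate molecules, so intervals and floors cover counting error only. Labels name single cortices but not litters, so p-values measure the spread between these libraries.

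Counts were tested in R 4.3.3 with edgeR 4.0.16 (filterByExpr, least count 10 and least total 15, TMM, robust quasi-likelihood, group as sole term) over 4 controls and 3 mutants, two-sided, with Benjamini-Hochberg adjustment over 16448 genes. The limit for a call was an adjusted p of 0.05. CPM were scaled by TMM. Named genes were all called members, the most abundant and most changed others by role, and called genes of the listed pathway. DESeq2 1.42.0 and limma 3.58.1 (voom with sample weights) were alternatives. The length correction is a smooth offset on genomic span for each library. On counts simulated for this comparison over 16168 genes, edgeR recovered 93 of 100 genes changed by log2 2 and 57 of 100 changed by log2 1. False calls were 6.25% of all edgeR calls and 17.0% of DESeq2 calls. The simulation drew each gene on its own, with 200 changed genes and no trend of a library along genomic length. The real libraries held such a trend, so these rates need not hold for them. Members, lists and promoter motif were chosen with earlier results of these data known.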

Additional observations from a re-analysis of the deposited data

Results flagged for a closer look

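For each of the 50 tested members, the 4 controls were examined for 1 library far from the others. In 4 members the gap between an extreme control and its neighbour, as a share of the range, exceeded Dixon's 95% critical value. Chance alone flags about 1 in 20 genes, here 2.50 of 50. The extreme library was control 4 for Hpse (33.1 CPM, other controls 21.5 to 21.7), Chst11 (40.0, others 19.4 to 20.8) and Gpc4 (10.7, others 5.25 to 5.95). For Extl2 it was control 1 (63.4 CPM, others 44.3 to 45.7). Hpse and Extl2 were called both with and without the library that stood apart. Chst11 and Gpc4 span over 100 kb, the class of genes that was high in control 4.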

How the results depend on the processing

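Each of the 7 called members had 1 sign in all the fits run on it, while 17 of the 43 members not called had log2 fold changes of both signs among the fits (Ext1 from -0.46 to 0.09, Chst3 from -0.65 to 0.60). Of the 7 called members 4 (Hs6st3, Hs3st1, Hpse and Dsel) were called in all 16 other fits, and Hs3st3a1, Extl2 and Csgalnact1 were lost in at least 1. Under the further condition of a log2 fold change beyond 1, which needs no other fit, Hs3st1 and Extl2 were not called. Of the 43 others, 37 were called in none. Members called lower numbered 5, against 8 with the length correction and 3 with a log2 fold change over 1, and 3 to 7 when 1 library was left out. Members called higher numbered 2, against 1 without a filter, 4 in limma-voom and 5 without controls 1 and 4, and 1 to 4 when 1 library was left out. Related genes called lower numbered 2, against 1 each with upper-quartile factors, a mean of at least 5 CPM or a log2 fold change over 1, 5 in DESeq2, 8 each in limma-voom, with the length correction and without controls 1 and 4, and 1 to 5 when 1 library was left out. Related genes called higher numbered 3, against 5 with upper-quartile factors, 6 without a filter, 5 with a mean of at least 5 CPM, 7 in DESeq2, 11 in limma-voom, 9 with the length correction, 8 without controls 1 and 4, 1 with a log2 fold change over 1, and 2 to 8 when 1 library was left out. Over all genes 1549 were called, against 3147 in limma-voom, 2753 with the length correction, 2778 without controls 1 and 4, 641 with a log2 fold change over 1, and 734 to 2347 when 1 library was left out. The cause of these shifts was not tested, beyond fewer samples in the reduced sets. No paired analysis was possible because the groups share no replicate numbers. Depth limits Hs3st3a1, with 2 to 6 reads per mutant.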
